A study of Neurospora crassa with 11 samples.

Results

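The comparison asked which parts of the response to xylan an altered XLR-1 protein gives in Neurospora crassa mycelium that has no xylan, and which parts it does not give. It compares 6 of the series' 11 libraries, with every gene of the count tables included. The strain under test was built in FGSC2489 and carried the xlr-1 allele A828V, placed at his-3 and driven by the ccg-1 promoter. Its own xlr-1 was deleted and replaced by a hygromycin resistance marker (HygR), and it was sampled in Vogel's medium without a carbon source (3 libraries, called A828V without carbon). The other group was the wild type OR74A (FGSC2489) in Vogel's medium with xylan (3 libraries). All cultures had first grown for 16 h on sucrose and were then washed and transferred. Strain and medium differ together between the groups, so the effect of the allele and that of carbon starvation cannot be told apart within the counts. The labels do not say how many transformants the strain stands for, nor whether each library had its own culture. The fit held all 11 libraries, so its estimate of the spread also drew on 4 libraries of an xlr-1 deletion strain on xylan. It also held 1 library of the A828V strain on sucrose. The p-values therefore speak only for the variation among the libraries of the fit, which may be technical.

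XLR-1 is a zinc-cluster transcription factor of the family that holds XlnR of Aspergillus and XYR1 of Trichoderma, and in Neurospora it is needed for growth on xylan and xylose. It acts on genes for the enzymes that cut xylan and for the pathway that converts xylose and arabinose to xylulose 5-phosphate. An alanine-to-valine change in Trichoderma XYR1 is known to make xylanase genes active without an inducing sugar. Fungi without carbon recycle their own protein and lipid and often begin to form conidia, the asexual spores.

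Gene counts per library came to 16998222, 18507550 and 13937020 for A828V without carbon and to 10568613, 13519404 and 18927605 for wild type on xylan. Levels below are CPM, gene counts relative to the library's total after TMM scaling, given for libraries 1, 2 and 3 of each group in that order. Pairs of A828V libraries correlated at 0.986 to 0.993 on log2 CPM and wild-type pairs at 0.914 to 0.971, and wild-type library 1 was the highest of its group for 40.8% of the genes tested. Of 8557 genes tested, 795 were higher in A828V without carbon (9.29%) and 983 lower (11.5%), at an adjusted p under 0.05 from edgeR's quasi-likelihood test with Benjamini-Hochberg adjustment, the source of every adjusted p below. The median log2 fold change of all genes tested was -0.01. With limma on log2(FPKM + 1), where the median gene moved to 0.30, the split was 1541 higher and 520 lower, 74.8% higher against 44.7% in the edgeR fit. For 2183 genes (25.5%) the 95% interval of the log2 fold change lay within -1 and 1, that is, within 2-fold. Without wild-type library 1 the counts were 424 higher and 576 lower. Of the original calls, 245 higher and 251 lower ones were kept in each of the 6 fits less 1 library.

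The strain label gives mating type a for the A828V strain, yet reads of matA-1, a gene of mating type A, were present in all of its libraries. matA-1 had 143, 130 and 107 counts in A828V without carbon and 125, 93 and 91 counts in wild type on xylan. The libraries labelled A828V without carbon thus went against their label at this locus. ccg-4, the pheromone precursor gene of mating type A strains, ran the way of the label, at 1.18 FPKM in A828V without carbon, 31.7 FPKM in wild type on xylan and 136 FPKM in wild type without carbon in the authors' deposited table. On the counts, however, its log2 fold change of -5.13 shrank to -1.58 without wild-type library 1 and was then not called. mfa-1, a further pheromone gene, was not called (0.13). The pheromone receptor gene pre-2 was higher in A828V without carbon (2.24), a call kept in all 6 fits less 1 library. The mating type is therefore not settled here, and its part in the results was not tested. The other checks of the construct were the genes it touches. xlr-1 (chromosome IV, 4706112 to 4709560, coordinates of the deposited tables, whose contigs are named as in assembly NC12) had 109, 129 and 115 CPM in A828V without carbon and 136, 158 and 112 CPM in wild type on xylan. The groups overlapped, with a log2 fold change of -0.20 (95% interval -1.05 to 0.65, edgeR adjusted p = 0.741). The reads come from the ccg-1 promoter in the A828V strain and from the native gene in wild type, and the interval reaches a 2-fold drop. ccg-1 itself, a clock-controlled and starvation-responsive gene, had 16614, 12499 and 17350 CPM without carbon in A828V and 2808, 3565 and 5384 CPM in wild type on xylan (log2 fold change 1.98, SE 0.43, edgeR adjusted p = 0.0122). his-3, a histidine synthesis gene at the landing site, was lower at 101, 89.1 and 103 CPM in A828V without carbon against 225, 239 and 407 CPM in wild type on xylan (-1.57, SE 0.32, edgeR adjusted p = 0.00961). The authors' deposited table had his-3 at a mean of 39.0 FPKM in A828V without carbon, 97.1 FPKM in wild type on xylan and 45.2 FPKM in wild type without carbon. Starved wild type is not among the libraries analysed here, and the means of A828V come from a second table of the authors, scaled on its own: the same starved wild type has 52.0 FPKM for his-3 there. Means set across the tables below are therefore descriptions, with starved wild type taken from the xylan table. The ccg-1 call was lost without A828V library 3, with log2 fold changes of 1.79 to 2.22 over the fits less 1 library.

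The xylan chain itself is cut by endoxylanases, and 2 of them carried nearly all of the reads of that list in both groups. gh10-2 (chromosome III, 4598536 to 4599913) had 6049, 6806 and 6982 CPM in A828V without carbon and 11187, 7903 and 5606 CPM in wild type on xylan. The groups overlapped and the log2 fold change was -0.32 (95% interval -1.03 to 0.40, edgeR adjusted p = 0.508), with the lower end of the interval at a 2-fold deficit. As the authors' deposited table has it, gh10-2 averaged 6992 FPKM in A828V without carbon, 7445 FPKM in wild type on xylan and 48.7 FPKM in wild type without carbon. gh11-2 (chromosome V, 6198659 to 6199980) had 4251, 3834 and 5198 CPM in A828V without carbon and 5610, 535 and 478 CPM in wild type on xylan. Wild-type library 1 thus stood with the A828V libraries and the other wild-type libraries far below, and the log2 fold change was 1.004 (95% interval -0.80 to 2.80, edgeR adjusted p = 0.396). Without wild-type library 1 gh11-2 was called higher in A828V, at 3.13 (edgeR adjusted p = 0.00479). The means for gh11-2 in the authors' deposited table were 4715 FPKM in A828V without carbon, 1695 FPKM in wild type on xylan and 27.5 FPKM in wild type without carbon.

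The remaining endoxylanase genes were read at low levels in A828V without carbon. gh10-1 had 7.18, 4.93 and 7.57 CPM there and 413, 4.06 and 5.83 CPM in wild type on xylan. Its fitted log2 fold change of -4.42 (SE 1.61, edgeR adjusted p = 0.0760) came from wild-type library 1, and without that library it was 0.40 (edgeR adjusted p = 0.811). It was called lower without wild-type library 2 or 3, down to -5.07. gh11-1 had 9.23, 11.5 and 8.95 CPM in A828V without carbon and 57.0, 7.28 and 12.4 CPM in wild type on xylan, again with library 1 alone high, and its value was 0.0027 without that library. It was called lower without wild-type library 2, at -1.89. gh10-3 and gh10-4 averaged 1.54 and 0.813 CPM in A828V without carbon and 3.44 and 0.145 CPM in wild type on xylan, and neither was called (edgeR adjusted p = 0.227 and 0.0523). gh10-4, at very few counts, was called higher with DESeq2, with upper-quartile factors, with the 6 libraries alone and with the replicate block. Of the 6 endoxylanase genes, 0 were called higher and 0 lower by edgeR, their median log2 fold change was -0.73 beside -0.01 for all genes tested, and without wild-type library 1 the median was 0.20. At an unadjusted p under 0.05, 3152 of all genes tested passed.

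**Figure D1:**
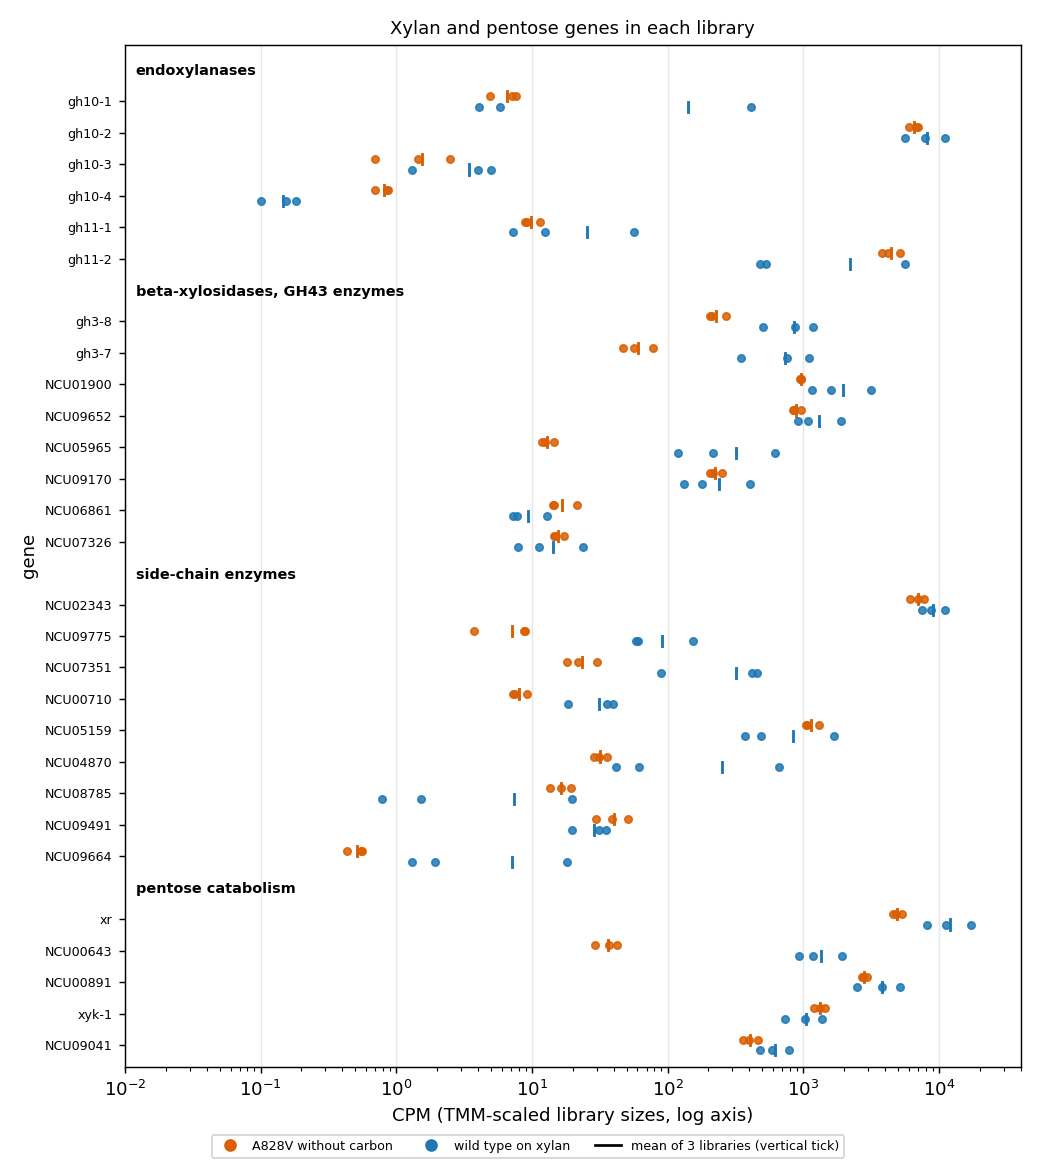
CPM (log axis) of each gene of the 3 xylan lists and of pentose catabolism in the 3 libraries of A828V without carbon (upper, orange) and of wild type on xylan (lower, blue), with a vertical tick at each group's mean. gh10-2, NCU02343, NCU00891 and xyk-1 overlap between the groups, while NCU05965, gh3-7 and NCU00643 stand apart by more than the spread of either group.

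Xylo-oligomers are split to xylose by beta-xylosidases, and some of these genes were lower in A828V without carbon while others overlapped with wild type. Of the 8 genes in the list of beta-xylosidases and family 43 enzymes, 3 fell, 0 rose and 5 were not called, with a median log2 fold change of -0.80. gh3-7 fell most among the beta-xylosidase genes, with 56.5, 47.0 and 78.3 CPM in A828V without carbon and 1109, 761 and 347 CPM in wild type on xylan (log2 fold change -3.61, SE 0.53, edgeR adjusted p = 0.00308). gh3-8 had 205, 214 and 268 CPM in A828V without carbon and 1175, 869 and 509 CPM in wild type on xylan (-1.89, SE 0.46, edgeR adjusted p = 0.0188). For gh3-7 the authors' deposited table gives 30.7 FPKM in A828V without carbon, 320 FPKM in wild type on xylan and 1.74 FPKM in wild type without carbon. For gh3-8 the authors' deposited table gives 106 FPKM in A828V without carbon, 356 FPKM in wild type on xylan and 1.38 FPKM in wild type without carbon. The gh3-8 call was lost without any 1 A828V library or wild-type library 1, at log2 fold changes of -2.22 to -1.59, while that of gh3-7 was kept in all 6 fits less 1 library.

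Another beta-xylosidase gene, NCU09652, had 837, 850 and 961 CPM in A828V without carbon and 1914, 1089 and 908 CPM in wild type on xylan, a difference that was not called (-0.56, 95% interval -1.27 to 0.15, edgeR adjusted p = 0.227). NCU01900, annotated as a xylosidase and arabinosidase, had 966, 942 and 963 CPM in A828V without carbon and 3152, 1602 and 1158 CPM in wild type on xylan. Its groups did not overlap, but the log2 fold change of -1.04 (95% interval -1.92 to -0.16) missed the threshold (edgeR adjusted p = 0.0868) and passed it without wild-type library 3, at -1.38. The arabinosidase gene NCU05965 was far lower, with 12.4, 14.5 and 12.0 CPM in A828V without carbon and 619, 215 and 118 CPM in wild type on xylan (-4.61, SE 0.73, edgeR adjusted p = 0.00391). Its level in A828V was close to that of starved wild type, at 8.997 FPKM in A828V without carbon, 212 FPKM in wild type on xylan and 6.41 FPKM in wild type without carbon in the authors' deposited table. The alpha-N-arabinofuranosidase gene NCU09170 had 206, 217 and 250 CPM in A828V without carbon and 131, 402 and 179 CPM in wild type on xylan, with overlapping groups (-0.08, edgeR adjusted p = 0.925).

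Side chains of xylan (arabinose, glucuronic acid, acetyl and feruloyl groups) are removed by a further set of enzymes. Some members of this set overlapped with wild type on xylan and others were called lower. Of its 9 genes 5 fell, 0 rose and 4 were not called, and the median log2 fold change was -1.96, or -0.69 without wild-type library 1. The 95% interval lay within 2-fold for 0 of the 9, so no member is shown to equal its level on xylan. The most abundant was NCU02343, an alpha-L-arabinofuranosidase gene, with 7034, 6175 and 7728 CPM in A828V without carbon and 8826, 11032 and 7470 CPM in wild type on xylan (-0.38, 95% interval -1.23 to 0.46, edgeR adjusted p = 0.495). The groups overlapped, and the authors' deposited table sets its means of 2878 FPKM in A828V without carbon and 3543 FPKM in wild type on xylan beside 98.5 FPKM in wild type without carbon. The acetylxylan esterase gene NCU05159 had 1059, 1058 and 1310 CPM in A828V without carbon and 1685, 490 and 370 CPM in wild type on xylan. It was not called (0.43, edgeR adjusted p = 0.595), and without wild-type library 1 it was higher in A828V (1.41, edgeR adjusted p = 0.0428). NCU09491, a feruloyl esterase gene, had 29.8, 38.8 and 51.2 CPM in A828V without carbon and 35, 19.9 and 31.3 CPM in wild type on xylan (0.48, edgeR adjusted p = 0.400). NCU08785, annotated only by its cellulose-binding domain, had 16.5, 13.5 and 19.4 CPM in A828V without carbon and 19.9, 1.53 and 0.789 CPM in wild type on xylan, and was called higher without wild-type library 1 (3.83, edgeR adjusted p = 0.0277).

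The side-chain genes that fell were a second arabinofuranosidase, the alpha-glucuronidase and 3 acetyl xylan esterases. NCU09775, the arabinofuranosidase gene, had 3.71, 8.71 and 8.89 CPM in A828V without carbon and 58.2, 153 and 60.6 CPM in wild type on xylan (-3.67, SE 0.87, edgeR adjusted p = 0.0173). NCU07351, whose enzyme removes glucuronic acid, had 18.2, 30.0 and 21.96 CPM in A828V without carbon and 89.7, 455 and 421 CPM in wild type on xylan (-3.78, SE 1.13, edgeR adjusted p = 0.0401). NCU07351 was about as low in starved A828V as in starved wild type, at 4.96 FPKM in A828V without carbon, 67.5 FPKM in wild type on xylan and 5.87 FPKM in wild type without carbon in the authors' deposited table. The esterase genes were NCU00710 (-1.96, edgeR adjusted p = 0.0408), NCU04870 (-2.99, edgeR adjusted p = 0.0492) and NCU09664 (-3.75, edgeR adjusted p = 0.0394). Wild-type library 1 was far above the others for 2 of them, and without it NCU04870 was at -0.69 and NCU09664 at -1.65, neither called. NCU04870 was also not called with upper-quartile factors (-2.90), with the 6 libraries alone (-2.99) or with limma (-1.41 and -1.42), NCU00710 not with upper-quartile factors (-1.87) or limma (-1.32 and -1.43), and NCU07351 and NCU09664 not with limma (-2.99 and -3.21, and -1.68 and -2.25). The calls of these 5 genes were also lost without any 1 A828V library, at log2 fold changes from -3.95 to -3.15 for NCU09775, -4.23 to -3.54 for NCU07351 and -2.29 to -1.75 for NCU00710. That of NCU07351 was lost without wild-type library 2 or 3 and that of NCU00710 without wild-type library 1 or 2.

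Some of these genes lie side by side. gh3-8 (chromosome I, 7477764 to 7480507) and the acetyl xylan esterase gene NCU00710 (7475734 to 7477712) are 51 bases apart with 0 genes between them, and their log2 fold changes were -1.89 and -1.96. gh3-7 (chromosome IV, 5279559 to 5281914) lies 716 bases from NCU09924 (5277522 to 5278842), annotated as a BNR/Asp-box repeat protein, and these were at -3.61 and -4.75. The sources do not state whether the libraries kept strand, and reads at the ends of such neighbours cannot be told apart. Over all 23 genes of the 3 xylan lists, 8 fell, 0 rose and 15 were not called, with a median of -1.04. Among all genes tested 11.5% were lower and 9.29% higher. Together the 23 genes took 2.30% to 2.75% of gene counts in A828V without carbon and 1.55% to 3.48% in wild type on xylan, so the ranges overlapped. gh10-2, gh11-2 and NCU02343 alone took 1.90% to 2.28% in A828V without carbon and 1.18% to 2.42% in wild type on xylan.

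In the cell xylose is reduced to xylitol, oxidised to xylulose and phosphorylated, and arabinose joins the route at xylitol by way of L-arabinitol and L-xylulose. The xylose branch was read at high levels in A828V without carbon, and the arabinose step that is specific to L-arabinitol was not. xr, the xylose reductase gene, had 4869, 4623 and 5362 CPM in A828V without carbon and 17205, 11222 and 8120 CPM in wild type on xylan. The groups did not overlap, and xr was lower by a log2 fold change of -1.30 (SE 0.38, edgeR adjusted p = 0.0377). It still stood at 2666 FPKM in A828V without carbon, 5434 FPKM in wild type on xylan and 8.57 FPKM in wild type without carbon in the authors' deposited table. NCU00891, the xylitol dehydrogenase gene, had 2961, 2723 and 2740 CPM in A828V without carbon and 5149, 3837 and 2513 CPM in wild type on xylan (-0.45, 95% interval -1.20 to 0.30, edgeR adjusted p = 0.360). xyk-1, the xylulose kinase gene, had 1446, 1210 and 1331 CPM in A828V without carbon and 1374, 1039 and 739 CPM in wild type on xylan (0.34, 95% interval -0.55 to 1.23, edgeR adjusted p = 0.575). Both overlapped between the groups, and the authors' deposited table had them at 933 and 679 FPKM in A828V without carbon, 1121 and 485 FPKM in wild type on xylan, and 22.8 and 25.9 FPKM in wild type without carbon.

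NCU00643, the L-arabinitol 4-dehydrogenase gene, had 29.2, 42.7 and 36.7 CPM in A828V without carbon and 1943, 1188 and 924 CPM in wild type on xylan. No wild-type library came near the A828V range, and the log2 fold change was -5.22 (SE 0.41, edgeR adjusted p = 0.00013), a call kept in all 6 fits less 1 library. The authors' deposited table sets 25.8 FPKM in A828V without carbon and 792 FPKM in wild type on xylan beside 21.9 FPKM in wild type without carbon. NCU09041, annotated as L-xylulose reductase, had 360, 400 and 462 CPM in A828V without carbon and 480, 587 and 787 CPM in wild type on xylan and was not called (-0.60, edgeR adjusted p = 0.267). Of the 5 genes of pentose catabolism 2 fell, 0 rose and 3 were not called, with a median of -0.60. Among all genes tested 11.5% were lower. The xr call was lost without any 1 A828V library and without wild-type library 1 or 2, at -1.59 to -0.97, and with limma, at -0.80.

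Xylulose 5-phosphate enters the pentose phosphate pathway. Of its 6 genes 1 fell, 0 rose and 5 were not called (median -0.95), beside 11.5% lower among all genes tested. The one that fell was ppm-3, the ribose 5-phosphate isomerase gene, with 18.1, 21.7 and 20.3 CPM in A828V without carbon and 96.4, 54.2 and 57.1 CPM in wild type on xylan (-1.79, SE 0.37, edgeR adjusted p = 0.0109). Transketolase (NCU01328, -0.90), transaldolase (NCU02136, -1.13), glucose-6-phosphate dehydrogenase (NCU09111, -0.64) and 6-phosphogluconate dehydrogenase (ppm-2, -0.995) were not called, with edgeR adjusted p-values of 0.149, 0.156, 0.0770 and 0.112. Transaldolase had 625, 657 and 657 CPM in A828V without carbon and 2733, 651 and 867 CPM in wild type on xylan, and transketolase had 1173, 1332 and 1268 CPM without carbon in A828V and 4116, 1692 and 1223 CPM in wild type on xylan, so wild-type library 1 was the high one for both. The ppm-3 call was lost without A828V library 1 or 3, at -2.02 to -1.47 over the fits less 1 library.

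Sugars reach these enzymes through membrane transporters, and the transporter list again held members called lower beside members not called. Of 20 transporter genes 7 fell, 1 rose and 12 were not called, with a median of -0.46. Among all genes tested 11.5% were lower and 9.29% higher. With DESeq2 8 transporter genes fell and 5 rose, and with the 6 libraries alone 7 fell and 6 rose. The largest fitted fall of the list, NCU01633 at -5.21, was not called. It was called lower with DESeq2 and without wild-type library 1 (-5.79). cdt-2, a transporter of cellodextrins and xylodextrins, had 5298, 5444 and 5900 CPM in A828V without carbon and 3339, 4722 and 3138 CPM in wild type on xylan. All A828V libraries were above all wild-type ones, but the log2 fold change of 0.57 (95% interval -0.52 to 1.67) was not called (edgeR adjusted p = 0.429). The authors' deposited table gives cdt-2 3503 FPKM in A828V without carbon, 2080 FPKM in wild type on xylan and 65.2 FPKM in wild type without carbon. The 6 transporters with the largest called falls were hgt-1 (-2.88), NCU01132 (-1.99), NCU02188 (-3.26), NCU05627 (-3.49), NCU04963 (-3.51) and NCU05897 (-4.36), with edgeR adjusted p-values of 0.0106, 0.00465, 0.000999, 0.0130, 0.00124 and 0.000971. The seventh was NCU06358 (-1.27, edgeR adjusted p = 0.0244).

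NCU05897, annotated as an l-fucose permease, had 214, 282 and 278 CPM in A828V without carbon and 5738, 4345 and 5808 CPM in wild type on xylan. NCU04963, annotated as a high-affinity glucose transporter, had 351, 371 and 320 CPM in A828V without carbon and 2166, 4038 and 5697 CPM in wild type on xylan. hgt-1, a monosaccharide transporter gene, had 790, 669 and 798 CPM in A828V without carbon and 6799, 3811 and 5957 CPM in wild type on xylan. None of these overlapped between the groups (25.9% of all genes tested lay lower without overlap), and starved A828V stood near starved wild type. The authors' deposited table has 131, 192 and 425 FPKM for NCU05897, NCU04963 and hgt-1 in A828V without carbon, 2452, 2146 and 2844 FPKM in wild type on xylan, and 231, 184 and 322 FPKM in wild type without carbon. NCU08152, a further high-affinity glucose transporter by annotation, was the one that rose, with 114, 83.0 and 126 CPM in A828V without carbon and 0.500, 5.44 and 1.64 CPM in wild type on xylan (5.39, SE 0.89, edgeR adjusted p = 0.00478). NCU06138, named for quinate uptake and so not in the list, had 1851, 1612 and 1962 CPM in A828V without carbon and 1639, 2720 and 1395 CPM in wild type on xylan (-0.09, 95% interval -0.89 to 0.72). Calls of hgt-1 and NCU05627 were lost without A828V library 1 or 3 (-3.16 to -2.70 and -4.18 to -3.04) and that of NCU06358 without 5 of the 6 libraries (-1.54 to -1.17), wild-type library 1 being the exception.

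**Figure D2:**
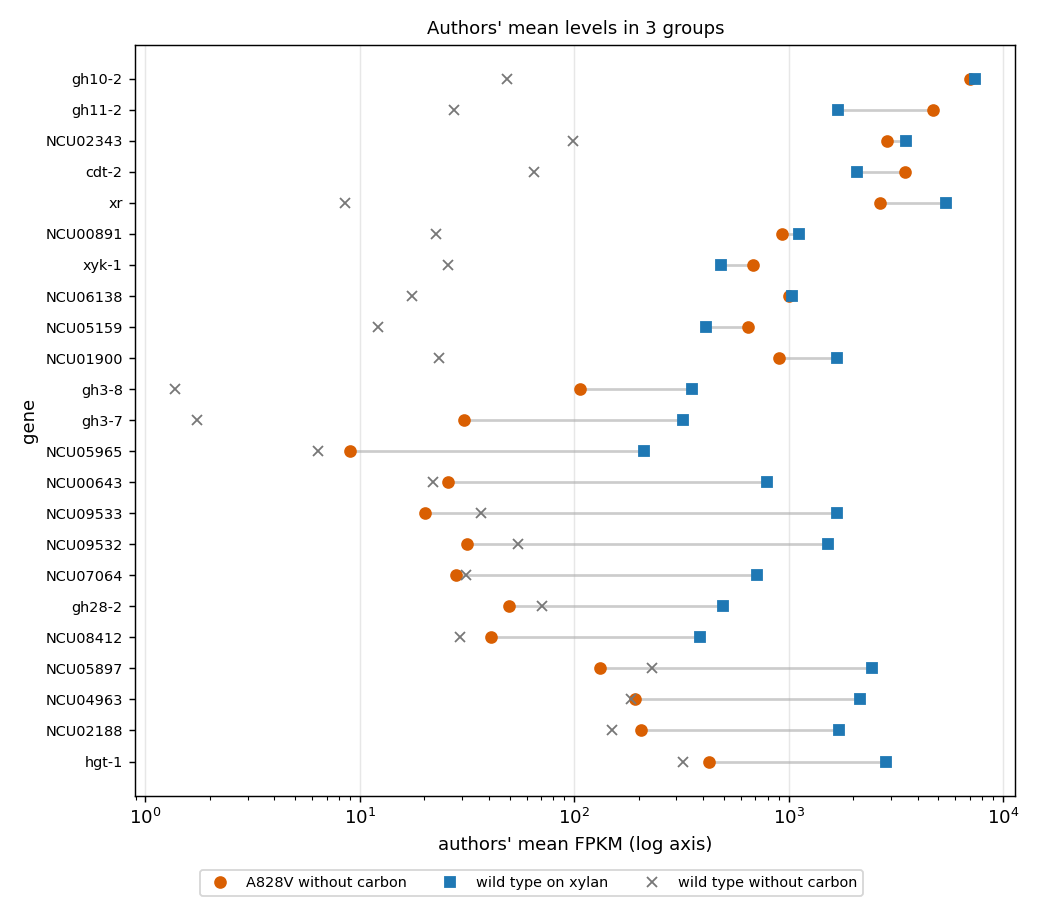
Mean FPKM (log axis) from the authors' deposited tables for 23 xylan-raised or transporter genes in A828V without carbon (orange circles), wild type on xylan (blue squares) and wild type without carbon (grey crosses), with a line joining the first 2 groups. From gh10-2 to NCU01900 the circles lie near the squares and far from the crosses, while from NCU05965 down they lie near the crosses.

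Several genes for the breakdown of pectin and of hemicelluloses other than xylan were lower in A828V without carbon. Of 7 pectin degradation genes 5 fell, 0 rose and 2 were not called (median -2.23), and of 4 genes for hemicelluloses other than xylan 3 fell (median -2.98). gh28-2, an exopolygalacturonase gene, had 62.8, 82.0 and 67.6 CPM in A828V without carbon and 755, 1018 and 538 CPM in wild type on xylan (-3.44, SE 0.34, edgeR adjusted p = 0.000803). The other pectin genes that fell were asd-1 (-2.23, edgeR adjusted p = 0.00418), the pectate lyase genes NCU06326 (-2.68, edgeR adjusted p = 0.0306) and NCU08176 (-3.62, edgeR adjusted p = 0.0235) and the polygalacturonase gene gh28-1 (-1.98, edgeR adjusted p = 0.0378). The mannanase gene NCU08412 had 52.6, 43.3 and 55.7 CPM in A828V without carbon and 503, 586 and 224 CPM in wild type on xylan (-3.11, SE 0.40, edgeR adjusted p = 0.00180). Against starved wild type these genes did not stand alike. gh28-2 was at 49.4 FPKM in A828V without carbon, 497 FPKM in wild type on xylan and 70.9 FPKM in wild type without carbon in the authors' deposited table. NCU06326 was at 21.5 FPKM in A828V without carbon, 140 FPKM in wild type on xylan and 4.02 FPKM in wild type without carbon in the authors' deposited table. NCU09924, of the hemicellulose list, was at 10.7 FPKM in A828V without carbon, 206 FPKM in wild type on xylan and 2.32 FPKM in wild type without carbon in the authors' deposited table. Fits less 1 A828V library lost the calls of NCU06326 (-2.94 to -2.26), NCU08176 (-4.16 to -2.01), gh28-1 (-2.31 to -1.78) and the galactanase gene NCU00972 (-2.84 with all libraries, -3.37 to -1.23). Without wild-type library 1 NCU08176 and NCU00972 were also not called, without library 2 NCU06326 and gh28-1, and without library 3 gh28-1.

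Galacturonic acid, the sugar of pectin, is broken down through L-galactonate, and 3 genes tied to that route are given here from among the large falls. NCU09532, the L-threo-3-deoxy-hexulosonate aldolase gene, had 36.0, 45.02 and 37.7 CPM in A828V without carbon and 1988, 2497 and 1612 CPM in wild type on xylan (-5.68, SE 0.35, edgeR adjusted p = 4.83e-05). NCU09533, annotated as an oxidoreductase, had 21.8, 37.6 and 24.1 CPM in A828V without carbon and 3610, 3248 and 1720 CPM in wild type on xylan (-6.68, SE 0.52, edgeR adjusted p = 0.00013). These 2 genes are neighbours on chromosome V, at 4493702 to 4495126 and 4497013 to 4498837. NCU07064, the L-galactonate dehydratase gene, chosen after its values were seen, had 13.7, 12.4 and 11.9 CPM in A828V without carbon and 272, 272 and 181 CPM in wild type on xylan (-4.25, SE 0.29, edgeR adjusted p = 9.22e-05). All 3 were at 20.3 to 31.6 FPKM in A828V without carbon, 713 to 1689 FPKM in wild type on xylan and 31.3 to 54.7 FPKM in wild type without carbon in the authors' deposited table, and their calls were kept in all 6 fits less 1 library.

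Few starch degradation and cellulase genes were called. Of 8 starch degradation genes 1 fell and 1 rose (median -0.78), near the shares of all genes tested (11.5% lower and 9.29% higher). gh31-3, an alpha-glucosidase gene, had 101, 72.8 and 113 CPM in A828V without carbon and 1615, 1560 and 826 CPM in wild type on xylan (-3.80, SE 0.42, edgeR adjusted p = 0.000973). gh31-1, of the same enzyme family by its symbol, went the other way, with 301, 282 and 338 CPM in A828V without carbon and 11.5, 40.0 and 20.6 CPM in wild type on xylan (3.67, SE 0.64, edgeR adjusted p = 0.00606). The glucoamylase gene gla-1 had 330, 409 and 338 CPM in A828V without carbon and 3340, 510 and 1010 CPM in wild type on xylan and was not called (-2.17, edgeR adjusted p = 0.113).

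Of 8 cellulase genes tested 1 fell and 0 rose, with a median of -0.16 that turned to 0.71 without wild-type library 1. The share that fell was near the 11.5% of all genes tested. The main cellobiohydrolase gene, cbh-1, had 44.2, 49.7 and 44.99 CPM in A828V without carbon and 110, 42.4 and 23.4 CPM in wild type on xylan (-0.34, edgeR adjusted p = 0.626). It was low in both groups beside the xylanases, at 20.2 FPKM in A828V without carbon, 20.9 FPKM in wild type on xylan and 14.7 FPKM in wild type without carbon in the authors' deposited table. gh6-3 had 20.1, 25.3 and 25.8 CPM in A828V without carbon and 491, 12.0 and 9.41 CPM in wild type on xylan, so its log2 fold change of -2.85 (edgeR adjusted p = 0.133) became 1.15 without wild-type library 1. The cellulase gene that fell, the endoglucanase gene gh7-1, was at -1.73 (edgeR adjusted p = 0.0316), a call lost without any 1 A828V library or wild-type library 1 (-2.15 to -1.18).

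Among 8 beta-glucosidases and cellobiose dehydrogenases 2 rose and 1 fell (median 0.50), and among 14 lytic polysaccharide monooxygenases, which cut cellulose by oxidation, 2 rose and 1 fell (median -0.20, or 0.85 without wild-type library 1). All genes tested had 9.29% higher and 11.5% lower. gh3-4, a beta-glucosidase gene, had 106, 105 and 161 CPM in A828V without carbon and 7.70, 8.20 and 3.22 CPM in wild type on xylan (4.29, SE 0.54, edgeR adjusted p = 0.00164). gh61-6, a monooxygenase gene, had 63.8, 74.9 and 55.9 CPM in A828V without carbon and 10.8, 8.13 and 8.44 CPM in wild type on xylan (2.83, SE 0.35, edgeR adjusted p = 0.00153). gh1-1, an intracellular beta-glucosidase gene, was lower, with 103, 102 and 98.5 CPM in A828V without carbon and 538, 292 and 189 CPM in wild type on xylan (-1.75, SE 0.35, edgeR adjusted p = 0.00920). The remaining calls were cdh-2 (2.37), gh61-10 (2.63) and gh61-2 (-1.35) in genes read at low levels, and each was lost in at least 2 of the fits less 1 library (1.97 to 2.93, 2.35 to 2.79 and -1.70 to -1.14). For cdh-2 these were the fits less any 1 A828V library or wild-type library 2 or 3, for gh61-10 those less A828V library 2 or 3, and for gh61-2 those less A828V library 1 or 3 or wild-type library 1 or 3.

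**Figure D3:**
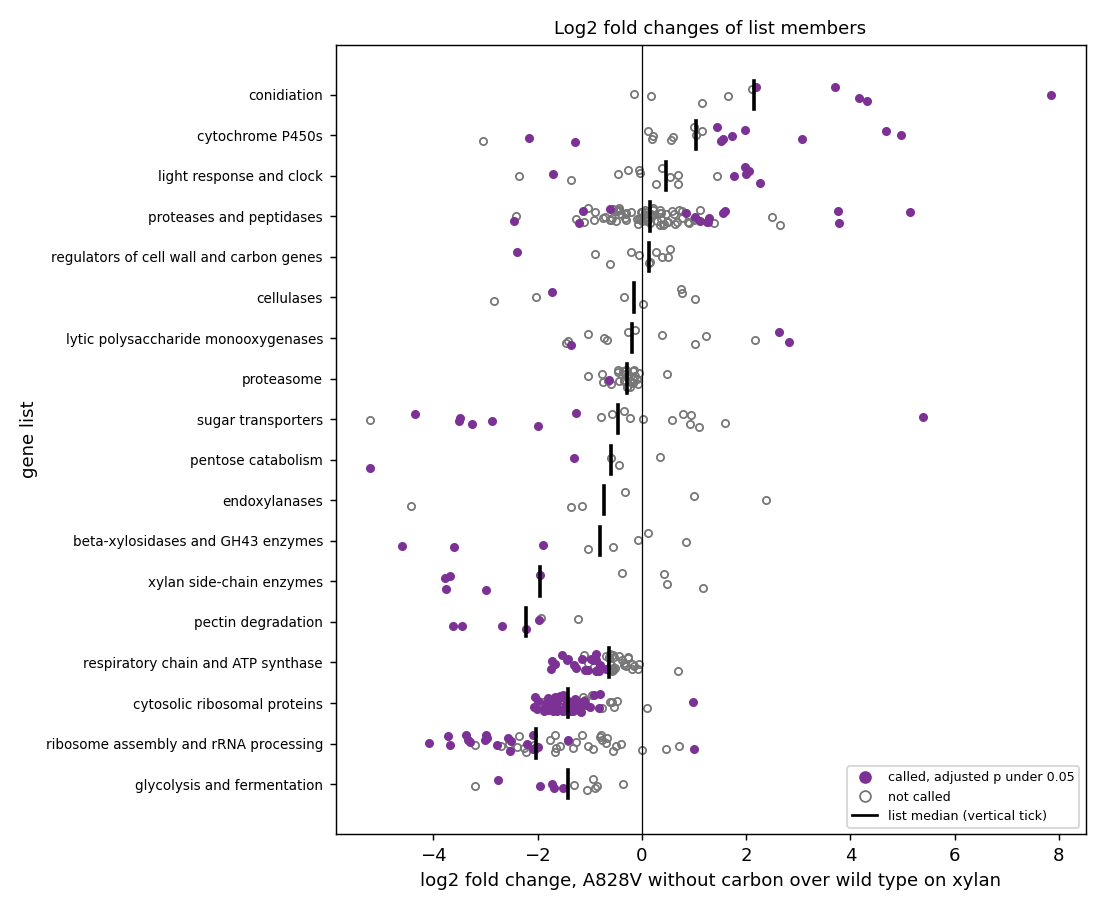
Log2 fold change of A828V without carbon over wild type on xylan for each tested member of 18 gene lists, filled where called at an adjusted p under 0.05, open where not, with a vertical tick at the list median. Of the lists drawn, conidiation lies highest at a median of 2.15 and pectin degradation lowest at -2.23 (other hemicellulose enzymes and fatty acid synthesis, with lower medians, are not drawn), and the xylan and pentose lists hold members near 0 beside members under -3.

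Some genes of conidiation were far higher in A828V without carbon. Of 10 conidiation genes 5 rose, 0 fell and 5 were not called (median 2.15). con-6, a gene of conidium formation, had 1013, 1215 and 1328 CPM in A828V without carbon and 6.90, 3.37 and 5.10 CPM in wild type on xylan (7.86, SE 0.79, edgeR adjusted p = 0.00083). eas, which encodes the hydrophobin that coats conidia, had 16714, 17663 and 19834 CPM in A828V without carbon and 120, 389 and 2221 CPM in wild type on xylan (4.31, SE 1.10, edgeR adjusted p = 0.0231). con-8 had 1918, 1613 and 2047 CPM in A828V without carbon and 62.6, 210 and 152 CPM in wild type on xylan (3.71, SE 0.45, edgeR adjusted p = 0.00128).

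The regulators fl, which drives conidiophore development, and acon-3 also rose, by 2.19 (SE 0.33, edgeR adjusted p = 0.00329) and 4.16 (SE 0.81, edgeR adjusted p = 0.00876). con-10 and con-13 were higher in all A828V libraries than in any wild-type library but were not called (1.65 and 2.11, edgeR adjusted p = 0.0631 and 0.129), and csp-1 overlapped (0.17, edgeR adjusted p = 0.795). Both con-10 and con-13 were called higher with the 6 libraries alone, with the replicate block and with limma at a pseudocount of 1. con-10 was also called with DESeq2 and with limma at a pseudocount of 0.1. The summed level of the 7 conidia markers was 19924, 20832 and 23478 CPM in A828V without carbon and 300, 751 and 2568 CPM in wild type on xylan. In each library 0 of 7 markers were at 0. Most of the sum in the A828V libraries came from eas, whose levels are given above, so it is not an average over the markers. Spores in the mycelium and expression by the mycelium cannot be told apart in these bulk samples, nor can fewer cells and less RNA per cell. Starved wild type shared the direction, with con-6 at 2202 FPKM in A828V without carbon, 10.05 FPKM in wild type on xylan and 773 FPKM in wild type without carbon in the authors' deposited table. The eas call was lost without any 1 A828V library and without wild-type library 2 (3.79 to 6.10).

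Several conidiation genes, and ccg-1, also answer to light and the circadian clock. Of 18 genes of the light response and clock 5 rose and 1 fell (median 0.46), beside 9.29% higher and 11.5% lower among all genes tested. al-3, a carotenoid synthesis gene, had 340, 342 and 337 CPM in A828V without carbon and 67.6, 76.0 and 69.3 CPM in wild type on xylan (2.26, SE 0.26, edgeR adjusted p = 0.00124). The photoreceptor gene vvd (1.77), bli-3 (1.99) and bli-4 (2.05) rose with it, while ccg-6 fell (-1.70, SE 0.27, edgeR adjusted p = 0.00391). The clock genes frq (0.39), wc-1 (0.28) and wc-2 (0.70) were not called, with edgeR adjusted p-values of 0.395, 0.678 and 0.060. Without wild-type library 1 wc-2 was called higher, at 0.92 (edgeR adjusted p = 0.0367). The sources do not state the light regime of the cultures, and its part was not tested. The calls of vvd were lost without A828V library 1 or 3 (1.54 to 1.997) and those of bli-3 without any 1 A828V library or wild-type library 2 or 3 (1.67 to 2.27).

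Beside con-6, the named large rises included enzymes that break down amino acids. NCU09184, annotated as indoleamine 2,3-dioxygenase, which opens the ring of tryptophan, had 253, 210 and 224 CPM in A828V without carbon and 0.6002, 0.537 and 0.546 CPM in wild type on xylan (8.66, SE 1.05, edgeR adjusted p = 0.00134). Its neighbour on chromosome III, the kynureninase gene NCU09183, which acts later in the same pathway, had 97.0, 92.8 and 93.2 CPM in A828V without carbon and 4.30, 5.29 and 8.62 CPM in wild type on xylan (3.95, SE 0.64, edgeR adjusted p = 0.00438). NCU01830, the 4-hydroxyphenylpyruvate dioxygenase gene of tyrosine breakdown, averaged 101 ± 10.99 CPM in A828V without carbon and 2.52 ± 0.425 CPM in wild type on xylan (SD, n = 3 each; 5.32, SE 1.42, edgeR adjusted p = 0.0272). NCU09184, NCU09183 and NCU01830 were about as high in starved wild type, with 126, 84.1 and 74.2 FPKM in A828V without carbon, 0.363, 4.58 and 1.55 FPKM in wild type on xylan, and 98.2, 106 and 61.4 FPKM in wild type without carbon in the authors' deposited table. The NCU01830 call was lost in each of the 6 fits less 1 library, at log2 fold changes of 5.13 to 5.43.

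NCU09575, a sterol esterase gene, had 1012, 982 and 986 CPM in A828V without carbon and 30.6, 9.05 and 10.02 CPM in wild type on xylan (5.91, SE 0.93, edgeR adjusted p = 0.00391). The oligopeptide transporter gene NCU07894 had 922, 632 and 757 CPM in A828V without carbon and 4.80, 9.66 and 13.6 CPM in wild type on xylan (6.36, SE 0.69, edgeR adjusted p = 0.000971). app, named for an abundant protein of the fruiting body, had 471, 1205 and 387 CPM in A828V without carbon and 2.30, 1.30 and 17.5 CPM in wild type on xylan (6.59, SE 1.26, edgeR adjusted p = 0.00854). NCU00985, annotated as a hydrolase, and NCU05767, annotated as a zinc-finger protein, were higher by 5.58 and 5.54. No library of either group crossed into the other's range for these 5 genes. Lack of overlap was a condition for the largest rises, and 28.4% of all genes tested lay higher without overlap.

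Of 86 proteases and peptidases 11 rose, 4 fell and 71 were not called (median 0.15), a share of rises near the 9.29% of all genes tested. Without any 1 A828V library 4 or 5 rose and 0 fell. NCU07159, annotated as proteinase T, had 2239, 2217 and 1576 CPM in A828V without carbon and 32.3, 14.1 and 124 CPM in wild type on xylan (5.14, SE 0.76, edgeR adjusted p = 0.00309). NCU07200, annotated as metalloprotease 1, had 4031, 3841 and 3825 CPM in A828V without carbon and 61.5, 150 and 634 CPM in wild type on xylan (3.79, SE 0.90, edgeR adjusted p = 0.0180). NCU07536, a carboxypeptidase gene, had 54.4, 81.5 and 59.3 CPM in A828V without carbon and 4.40, 4.98 and 5.04 CPM in wild type on xylan (3.75, SE 0.50, edgeR adjusted p = 0.00183). In both groups of wild type these genes stood far below A828V without carbon. For NCU07159, NCU07200 and NCU07536 the authors' deposited table gives 989, 3467 and 26.9 FPKM in A828V without carbon, 24.0, 208 and 1.73 FPKM in wild type on xylan, and 32.3, 288 and 3.06 FPKM in wild type without carbon. scp, a secreted carboxypeptidase gene (1.56), the tripeptidyl-peptidase gene NCU08418 (1.59) and the serine protease gene NCU00673 (1.25) rose less. Calls of NCU07200 were lost without A828V library 1 or 3 or wild-type library 2 (3.31 to 5.15) and those of NCU00673 without any 1 A828V library (1.03 to 1.34).

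Cytochrome P450 genes, whose products oxidise lipids and other small molecules, included 8 that rose and 2 that fell among 19 tested (median 1.04). The share that fell was near the 11.5% of all genes tested, of which 9.29% rose. Without any 1 A828V library 4 or 5 P450 genes rose and 0 fell. NCU06895 had 379, 356 and 486 CPM in A828V without carbon and 11.5, 20.3 and 15.6 CPM in wild type on xylan (4.68, SE 1.09, edgeR adjusted p = 0.0165), and NCU08128 was higher by 4.97 (SE 0.82, edgeR adjusted p = 0.00465). The NCU06895 call was lost without A828V library 3 or wild-type library 1 or 3 (4.50 to 4.82). Of 14 amino acid permease genes 3 fell, 0 rose and 11 were not called (median -0.08, which turned to 0.41 with limma and a pseudocount of 1), and DESeq2 called 2 higher. The permease genes NCU05830 (-2.87, SE 0.55), NCU05776 (-1.83, SE 0.25) and NCU02783 (-0.88, SE 0.18) were lower, the last of them not without A828V library 1 or 3 (-0.96 to -0.87).

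**Figure D4:**
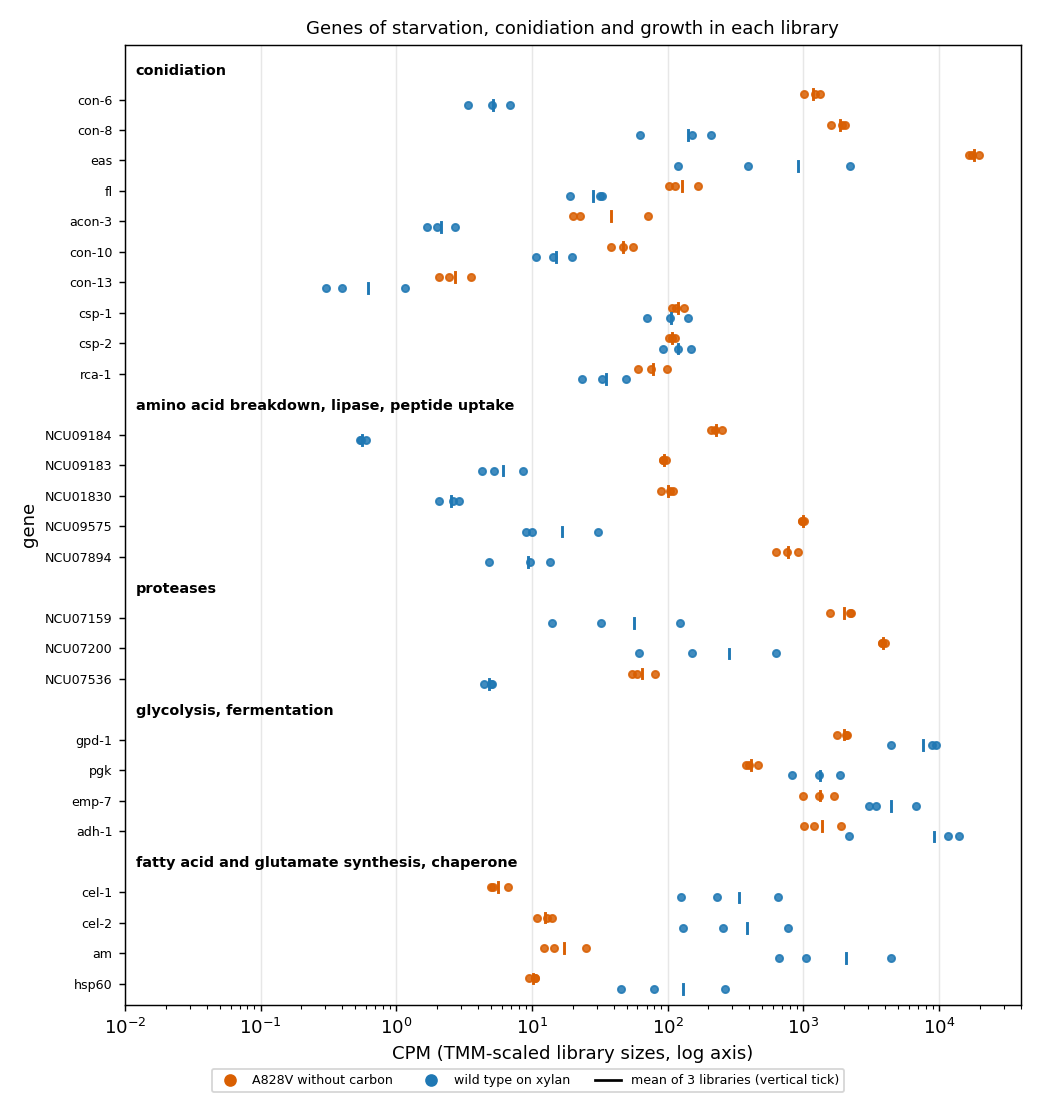
CPM (log axis) of conidiation genes, of genes of amino acid, lipid and peptide use, of proteases and of growth genes in the 3 libraries of A828V without carbon (upper, orange) and of wild type on xylan (lower, blue), with a vertical tick at each group's mean. con-6 and NCU09184 differ most upward and cel-1 and am most downward, and the wild-type libraries are spread more widely than the A828V ones for eas, am and adh-1.

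Most genes of cytosolic ribosomal proteins were lower in A828V without carbon. Of 70 cytosolic ribosomal protein genes 58 were lower in A828V without carbon, 1 was higher (NCU04614, 0.98) and 11 were not called (median -1.42). The NCU04614 call was lost without any 1 A828V library and without wild-type library 1 or 3 (0.75 to 1.06). These genes took 1.80%, 2.75% and 2.16% of scaled counts in the A828V libraries and 6.01%, 4.68% and 7.36% in those of wild type on xylan. Without wild-type library 1, 45 were lower, and over the fits less 1 library the number ran from 13 to 60. Of 51 genes of ribosome assembly and rRNA processing 19 fell and 1 rose (median -2.04), but their summed level of 701, 778 and 703 CPM in A828V without carbon stood against 2929, 1210 and 1741 CPM in wild type on xylan. Without wild-type library 1, 2 were lower, and without A828V library 1, 2 or 3 the numbers were 1, 2 and 1. The rRNA methyltransferase gene NCU03702 (fibrillarin) had 16.2, 22.3 and 13.8 CPM in A828V without carbon and 267, 92.9 and 167 CPM in wild type on xylan (-3.33, SE 0.65, edgeR adjusted p = 0.00872), a call kept in all 6 fits less 1 library.

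Of 16 mitochondrial ribosomal protein genes 9 fell (median -1.03), of 34 aminoacyl-tRNA synthetase genes 9 fell (median -0.76), and of 51 genes of the respiratory chain and ATP synthase 21 fell (median -0.63), with 0 higher in each list. Over the fits less 1 library these numbers ran from 2 to 11, from 1 to 9 and from 4 to 22, each lowest without A828V library 1 (for the synthetases and the respiratory chain equally low without library 3), and without wild-type library 1 they were 3, 5 and 11. NCU00405, a glycyl-tRNA synthetase gene, was lower by -2.26 (SE 0.41, edgeR adjusted p = 0.00714) and the ATP synthase gene NCU00644 by -1.72 (SE 0.31, edgeR adjusted p = 0.00662). The proteasome list held few calls. Of 29 genes 1 was called (pca-6, -0.64, edgeR adjusted p = 0.04996), and for 20 the 95% interval lay within 2-fold, against 25.5% of all genes tested. That single call was lost without any 1 A828V library and without wild-type library 1 or 3 (-0.78 to -0.54). Of 14 heat shock and chaperonin genes 4 fell, among them hsp60, with 9.48, 10.5 and 10.5 CPM in A828V without carbon and 266, 45.3 and 79.2 CPM in wild type on xylan (-3.68, SE 0.87, edgeR adjusted p = 0.0177), lost without any 1 A828V library or wild-type library 1 (-4.17 to -2.61).

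Of 12 genes of glycolysis and fermentation 5 fell, 0 rose and 7 were not called (median -1.41), and 0 were lower without any 1 A828V library or wild-type library 3. gpd-1, the glyceraldehyde-3-phosphate dehydrogenase gene, had 1784, 2102 and 2061 CPM in A828V without carbon and 8884, 4453 and 9603 CPM in wild type on xylan (-1.95, SE 0.57, edgeR adjusted p = 0.0377). adh-1, the alcohol dehydrogenase gene, had 1010, 1888 and 1205 CPM in A828V without carbon and 2174, 11708 and 13978 CPM in wild type on xylan (-2.76, SE 0.72, edgeR adjusted p = 0.0245). pgk (-1.69), the enolase gene emp-7 (-1.73) and the glucokinase gene NCU00575 (-1.51) were the other falls. Each of the 5 calls was lost without any 1 A828V library and without wild-type library 3, and those of gpd-1 and NCU00575 also without library 1. Their log2 fold changes in these fits ran from -2.30 to -1.82 for gpd-1, -3.23 to -2.40 for adh-1, -1.94 to -1.43 for pgk, -2.03 to -1.35 for emp-7 and -1.91 to -0.91 for NCU00575.

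Of 5 genes of fatty acid synthesis 2 fell, the subunits cel-1 and cel-2 of fatty acid synthase, neighbours on chromosome IV. Among all genes tested 11.5% were lower. cel-1 had 5.02, 6.70 and 5.19 CPM in A828V without carbon and 647, 230 and 127 CPM in wild type on xylan (-5.89, SE 0.62, edgeR adjusted p = 0.000971), and cel-2 was at -4.94 (SE 0.63, edgeR adjusted p = 0.00178). am, the NADP-linked glutamate dehydrogenase gene of ammonium assimilation, had 14.7, 25.1 and 12.3 CPM in A828V without carbon and 4457, 663 and 1041 CPM in wild type on xylan (-6.89, SE 1.16, edgeR adjusted p = 0.00519). The glutamine synthetase genes gln-1 and gln-2 were each lower by -1.99, while gdh-1, the NAD-linked glutamate dehydrogenase gene that works in the breakdown direction, had 3762, 2648 and 3414 CPM in A828V without carbon and 140, 1109 and 1331 CPM in wild type on xylan and was not called (1.93, edgeR adjusted p = 0.255). Of 6 genes of gluconeogenesis and the glyoxylate cycle 2 fell and 4 were not called (median -0.59, or 0.24 and 0.25 with limma). Those that fell were the acetate-use genes acu-5 (-3.31, edgeR adjusted p = 0.00463) and acu-8 (-3.01, edgeR adjusted p = 0.0356). Calls lost without single A828V libraries were those of gln-1 (libraries 1 and 3, -2.28 to -1.64), gln-2 (any, -2.19 to -1.74) and acu-8 (any, and wild-type library 2 or 3, -3.43 to -2.44).

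Among 11 regulators of wall and carbon genes 1 was called, a fall, near the share of all genes tested (11.5% lower and 9.29% higher). cre-1, the repressor gene of carbon catabolite repression, had 41.7, 50.1 and 33.3 CPM in A828V without carbon and 185, 180 and 291 CPM in wild type on xylan (-2.39, SE 0.60, edgeR adjusted p = 0.0213), a call lost without any 1 A828V library or wild-type library 3 (-2.60 to -2.19). clr-1, an activator gene of the cellulose response, had 279, 260 and 256 CPM in A828V without carbon and 241, 268 and 152 CPM in wild type on xylan, with an interval within 2-fold (0.27, -0.37 to 0.91). vib-1, a further regulator of the wall-degrading enzymes, had 289, 305 and 325 CPM in A828V without carbon and 322, 312 and 322 CPM in wild type on xylan (-0.06, -0.79 to 0.67). clr-2, the partner of clr-1, was low in both groups, at 9.05 ± 1.59 CPM in A828V without carbon and 6.29 ± 2.41 CPM in wild type on xylan (SD, n = 3 each). Of 8 genes of protein folding in the endoplasmic reticulum, stk-14, the IRE1 kinase gene, was higher (0.81, edgeR adjusted p = 0.0390), a call lost in each of the 6 fits less 1 library (0.70 to 0.86).

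The remaining named genes include some with large differences between the groups. NCU09968 (chromosome VI, 309546 to 315476), a gene of unknown function, had 0.1004, 0 and 0.0626 CPM in A828V without carbon and 102, 91.6 and 75.4 CPM in wild type on xylan (edgeR adjusted p = 1.2e-05). It was read in starved wild type too, at 0.0333 FPKM in A828V without carbon, 29.4 FPKM in wild type on xylan and 31.1 FPKM in wild type without carbon in the authors' deposited table, and the A828V library on sucrose had 0.0879 CPM. NCU04169 had 1.51, 0.813 and 1.44 CPM in A828V without carbon and 216, 33.9 and 12.0 CPM in wild type on xylan (-6.12, SE 1.07, edgeR adjusted p = 0.00621). The pheromone gene ccg-4 had 3.31, 0.718 and 1.44 CPM in A828V without carbon and 181, 7.13 and 3.82 CPM in wild type on xylan, so the call (-5.13, edgeR adjusted p = 0.0285) was lost without wild-type library 1 (-1.58), as without any 1 A828V library. The pheromone receptor gene pre-2 was higher (2.24, SE 0.45, edgeR adjusted p = 0.00961) and mfa-1 was not called (0.13, edgeR adjusted p = 0.868). Other large falls were pho-5, a phosphate transporter gene (-7.06), ilv-2, of branched amino acid synthesis (-5.19), and the cellulose-binding genes NCU05751 (-5.28) and NCU09416 (-5.76). The authors' deposited table has each of these genes at least 4-fold higher in wild type on xylan than in wild type without carbon. Without wild-type library 1 ilv-2 was at -2.20 and NCU05751 at -2.97, both still called, and the ilv-2 call was lost without any 1 A828V library.

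To set the count test beside the whole xylan response, genes were sorted by the authors' deposited table of wild type on xylan against wild type without carbon. The table calls 394 genes at least 4-fold higher on xylan with 10 FPKM or more there (4.43% of 8896), and 100 genes at least 4-fold lower with 10 FPKM or more without carbon (1.12%). Both classes use the wild-type xylan libraries that also enter the present comparison, so their counts describe and do not test. Of the xylan-raised genes 381 were tested, and 251 were lower in A828V without carbon, 0 were higher and 130 were not called, with a median log2 fold change of -2.29. By size, 35 lay under -4, 194 between -4 and -2, 113 between -2 and -1, 36 between -1 and 1 and 3 between 1 and 2. All genes tested had 67.4% between -1 and 1, against 9.45% of the xylan-raised genes.

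The interval lay within 2-fold for 1 xylan-raised gene (NCU06138), and for 7 when wild-type library 1 was left out. The 39 genes above -1 included gh10-2, gh11-2, NCU02343, NCU05159, NCU09491, NCU09652, NCU00891, xyk-1 and cdt-2, whose values are given above. Wild-type library 1 was the highest of its group for 182 of the 381 genes and library 3 for 153, and without library 1 there were 203 lower and 2 higher. Of the 100 starvation-raised genes 73 were higher in A828V without carbon, 0 were lower and 27 were not called, with a median of 2.38, and without wild-type library 1 there were 69 higher. The fitted log2 fold change was above 0 for 100 of 100, against 49.8% of all genes tested. The class was chosen for low levels in the same wild-type xylan libraries, so this sign is partly built in. Among the 15 with the largest fold in the authors' deposited table were con-6, NCU09184, NCU09183, NCU01830, app, NCU06895, NCU08152 and NCU05767.

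**Figure D5:**
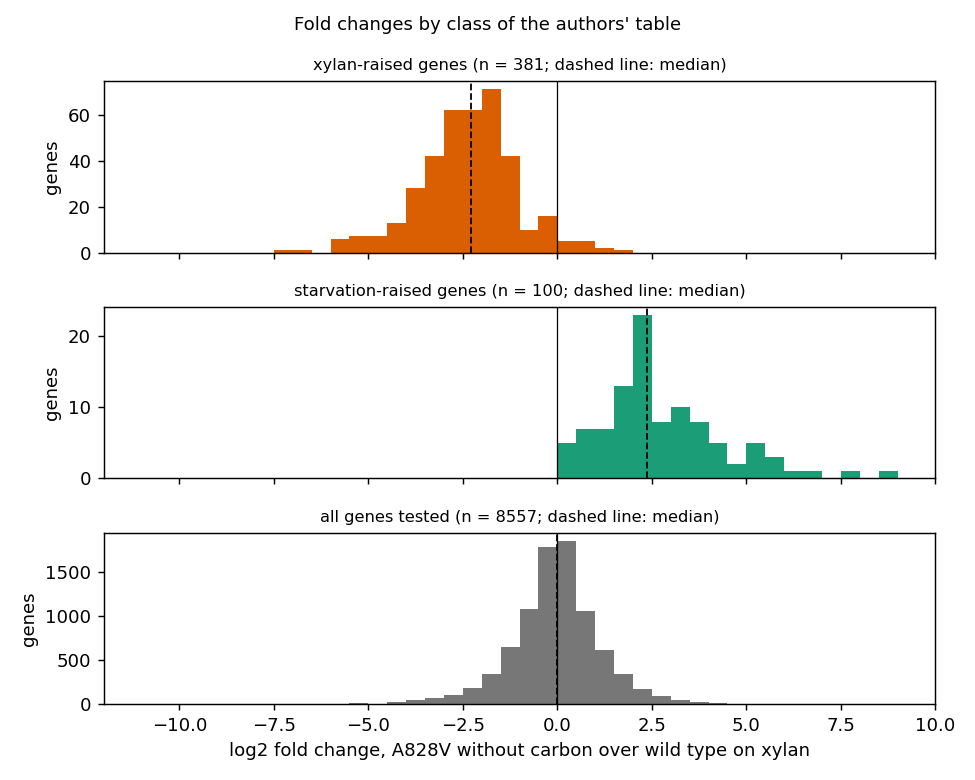
Number of genes by log2 fold change of A828V without carbon over wild type on xylan, for genes the authors' deposited table has raised on xylan in wild type (top), raised without carbon in wild type (middle) and for all genes tested (bottom), with a dashed line at each median. The medians are -2.29, 2.38 and -0.01, and the xylan-raised histogram keeps a right-hand shoulder of 39 genes above -1.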

How the data were processed

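Raw read counts per gene (9758 genes) and FPKM values were taken as the authors deposited them, per the file headers. The submitters' processing notes name TopHat2 2.04, HTSeq 0.6, Cufflinks 2.02 and Cuffdiff 2.02, without their settings. Entries that name no gene (6.48% to 16.9% of each library's total) were left out. The authors' deposited comparison tables give mean FPKM and an adjusted p-value for 9600 genes. Their 12 columns of single libraries were not used, and log2 folds between their means were recomputed. The main test on the counts was edgeR 4.0.16 under R 4.3.3 (TMM, filterByExpr with a count minimum of 10, quasi-likelihood F-test, 2-sided, Benjamini-Hochberg adjustment). It used 1 model of all 11 libraries, with a mean for each group and 7 residual degrees of freedom, and was checked on simulated data. A 95% interval comes from that test's standard error. Alternatives were DESeq2 1.42.0, other scalings and filters, 6 libraries only, a replicate block, limma 3.58.1 on log2(FPKM + 1) or + 0.1, and leaving out each library. Chi-square per degree of freedom between libraries of a group was 19.0 to 402, so none was a duplicate.

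The 33 gene lists were built by gene ID or product name, 7 members were removed because their product named another function, and symbols came from RefSeq. The comparison, lists and alternatives were chosen with earlier results of these data known. Named were xlr-1, his-3, ccg-1 and mating genes, list members, the 15 largest rises and falls among called genes with 10 CPM or more in the higher group and no overlap, and the 15 largest folds of each class.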

Additional observations from a re-analysis of the deposited data

How the results depend on the processing

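The number of genes called moved most. Higher in A828V without carbon were 1240 genes with DESeq2, 1489 with the 6 libraries alone, and 1541 and 1363 with limma on FPKM with a pseudocount of 1 and 0.1. Lower were 1524 genes with the 6 libraries alone and 520 and 503 with limma. Leaving out 1 library gave 266 to 531 higher and 274 to 991 lower genes, 109 to 240 lower xylan-raised genes, 55 to 69 higher starvation-raised genes and 65 to 210 called list members (215 with all libraries). Xylan-raised genes with an interval within 2-fold numbered 3 with DESeq2, with upper-quartile factors and with the 6 libraries alone, 9 and 7 with limma, 2 with a class cut at 2-fold, and 0 to 7 in the fits less 1 library. Same-numbered libraries correlated at -0.10 to -0.23 in their deviations, so the numbers are not taken as pairs. With the replicate block there were 956 higher and 899 lower genes, 198 called list members, 265 lower xylan-raised genes and 0 within 2-fold.

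Calls of named genes also depended on the test. With limma and a pseudocount of 1, 18 calls were lost, among them those of xr, gh28-1, NCU08176, NCU00972, gh7-1, gh61-2, gpd-1, adh-1, emp-7, NCU00575, acu-8, NCU02783, pca-6 and ccg-4, and with 0.1 there were 21, with gh3-8, NCU06326 and pgk besides. The replicate block lost 11, those of NCU04870 (-1.78), xr (-1.23), NCU06358, NCU00972, gh7-1, gh61-2, NCU00575, NCU00673, ilv-2, stk-14 and pca-6.

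Some values that were not called with all libraries changed sign, and the cause was not tested. With limma (pseudocounts 1 and 0.1) xlr-1 was at 0.11 and 0.12, gh10-2 at 0.10 in both, NCU09170 at 0.35 in both, NCU06138 at 0.23 in both, cbh-1 at 0.38 and 0.41 and vib-1 at 0.25 in both. With upper-quartile factors NCU09170 was at 0.014, NCU06138 at 0.011 and vib-1 at 0.037, and with the replicate block NCU09170 at 0.090. Over the fits less 1 library matA-1 ran from -0.61 to 0.083, gh10-1 from -5.07 to 0.40, gh11-1 from -1.89 to 0.0027, NCU09170 from -0.37 to 0.45, NCU05159 from -0.0003 to 1.41, NCU06138 from -0.32 to 0.17, cbh-1 from -0.79 to 0.49, gh6-3 from -3.48 to 1.15, clr-1 from -0.0004 to 0.35 and csp-1 from -0.050 to 0.38. Depth limits the genes of few counts, such as gh10-4 and NCU09664.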
